A study of Arabidopsis thaliana with 4 samples.

Results

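The 9 nuclear genes described here encode chloroplast proteins of the light-harvesting superfamily that do not serve as bulk antenna: the early light-induced proteins ELIP1 and ELIP2, the stress enhanced proteins SEP1 and SEP2, the one-helix proteins OHP1 and OHP2, LIL3:1 and LIL3:2, and PSBS. They were taken by gene code (AT3G22840, AT4G14690, AT4G34190, AT2G21970, AT5G02120, AT1G34000, AT4G17600, AT5G47110 and AT1G44575, in that order) by a rule that uses no read level, though the set was chosen with earlier results of these data known, from tables that together list 23049 genes. The tables come from 4 RNA sequencing libraries of *Arabidopsis thaliana* leaves, 1 library per group, and no difference has a replicate check. The groups are the wild type (accession Col-0) at 20 °C, the mutant sme1-1 in the Col-0 background at 20 °C, the wild type after 24 h at 4 °C, and sme1-1 after 24 h at 4 °C. The plants of all 4 groups were 2 weeks old and grown on soil in long days. Growth light was 90 µmol m-2 s-1 and light during the cold was 40 µmol m-2 s-1, so temperature and light differ together and cannot be told apart. The title names SmE1 as a subunit of the Sm ring, the protein ring on spliceosomal small nuclear RNAs. The number of plants per library and the kind of lesion in sme1-1 are not stated in the labels.

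Proteins of this superfamily sit in the thylakoid membrane, and most of them carry chlorophyll-binding helices. ELIPs accumulate transiently when chlorophyll is made or released under strong light, cold or ultraviolet radiation, and are thought to bind free pigment so that it does not produce reactive oxygen. OHP1 and OHP2 act as a pair in the assembly of photosystem II, LIL3 proteins hold enzymes of chlorophyll synthesis at the membrane, and PSBS is the pH sensor that switches on the harmless release of excess light energy as heat. SEP1 and SEP2 were named for transcripts that increase under light stress, and SEP here does not mean the floral SEPALLATA genes.

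The libraries held 44.6 M to 47.2 M uniquely mapped reads, and 17218 genes were compared whose mean reached 1 CPM (reads per M reads of the library). The mutated gene did not follow the labels. SME1 (AT2G18740) was read at 14.7 CPM in the Col-0 20 °C-labelled library and 27.8 CPM in the sme1-1 20 °C-labelled one, but at 0.679 and 0.919 CPM in those labelled Col-0 4 °C and sme1-1 4 °C. The cold-regulated gene COR15A was read at 25.9 and 30.1 CPM in the 2 Col-0-labelled libraries, and at 5092 and 6272 CPM in the 2 sme1-1-labelled ones (20 °C first in each case). The other genes of the label check, COR15B, KIN1, LTI30 and RD29A, were also higher with the sme1-1 label at both temperatures. Their folds ran from 55.8 (RD29A, 20 °C) to 900 (LTI30, 4 °C). SME1 thus divided the libraries by their temperature label, and COR15A and these 4 genes by their genotype label. For this reason each library is called by its label, and every direction given is a direction between labels. Whether the labels Col-0 4 °C and sme1-1 20 °C were exchanged was not tested, and the labels alone cannot settle it. Were they exchanged, every ratio given between genotype labels would be a ratio between temperatures within 1 genotype, and every ratio between temperature labels a ratio between genotypes at 1 temperature. Leaf markers (RBCS1A, RCA, CA1, GLDP1 and PSAD-1) were read in all 4 libraries, with a summed level of 58779 and 60716 CPM in those labelled Col-0 and 40227 and 38663 CPM in those labelled sme1-1. Of 5 seed markers 3 or 4 had no read in each library, and the 5 flower markers together reached at most 1.86 CPM. Of the root list the hair gene RHD6 had no read in any library, COBL9 at most 4 reads and WER 30 to 34 reads. PYK10 and SCR held nearly all of the list's sum. It was 295 and 312 CPM in the Col-0-labelled libraries, against 136 and 148 CPM in the sme1-1-labelled ones. The phloem list (SUC2, APL and SEOR1) lay between 128 and 198 CPM and the list for guard cells and epidermis between 82.0 and 97.7 CPM. Within the phloem list SUC2 alone was higher with the sme1-1 label, at 117 and 156 CPM against 62.6 and 69.1 CPM with Col-0. APL (12.9 and 12.9 against 16.2 and 17.0 CPM) and SEOR1 (29.5 and 28.3 against 48.9 and 45.2 CPM) were lower, so the phloem sum follows SUC2. The leaf, root and phloem sums moved with the genotype label as the ELIP genes did or opposite to them, and their part in the results below was not tested. In leaf tissue, fewer cells of a type and less RNA per cell cannot be told apart.

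The stretches below are shown because ELIP1 and ELIP2, and LIL3:1 and LIL3:2, are close copies and the tables count only uniquely mapped reads. They were read from the TAIR10.1 reference sequence of the coding exons, with bases counted from the start codon. Capitals mark the longest run that both copies share.
ELIP1, coding bases 245 to 310: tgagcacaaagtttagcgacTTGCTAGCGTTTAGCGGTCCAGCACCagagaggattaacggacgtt
ELIP2, coding bases 239 to 304: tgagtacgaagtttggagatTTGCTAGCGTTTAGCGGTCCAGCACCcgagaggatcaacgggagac
LIL3:1, coding bases 303 to 382: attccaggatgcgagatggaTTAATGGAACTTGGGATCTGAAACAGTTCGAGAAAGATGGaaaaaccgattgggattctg
LIL3:2, coding bases 294 to 373: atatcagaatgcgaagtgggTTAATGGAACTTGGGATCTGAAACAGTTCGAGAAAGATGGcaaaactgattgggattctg
The coding sequences of ELIP1 and ELIP2 were identical at 78.9% of aligned bases, with a longest shared run of 26 bases. LIL3:1 and LIL3:2 were identical at 80.3%, with a longest shared run of 40 bases. In TAIR10.1 coordinates ELIP1 lies at chr3:8084405-8085669 on the minus strand and ELIP2 at chr4:8418242-8419325 on the plus strand, each with 3 exons. LIL3:1 lies at chr4:9803624-9805410 on the plus strand and LIL3:2 at chr5:19133986-19135414 on the minus strand, also with 3 exons each. For every other pair among the 9 genes the longest shared run was at most 14 bases. Read length is not stated in the labels. Reads covered between 92.0% and 99.9% of the length of each gene in each library, so no copy was read over a small part of its length alone.

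The promoters of ELIP1 and ELIP2 are shown because their transcripts differed most between the libraries, and that of OHP1 because it shares a motif with ELIP1 while its level went the other way. Each window runs from 250 bases before the annotated gene start to 50 bases after it, in TAIR10.1, whose nuclear chromosomes are those of TAIR10, and is written in the direction of the gene. Capitals mark matches to the G-box (CACGTG, bound by bZIP and bHLH factors such as HY5 and the PIFs), the cold-response core CCGAC (bound by CBF factors) and the evening element AAAATATCT, on either strand.
ELIP1 promoter, chr3:8085620-8085919 (- strand): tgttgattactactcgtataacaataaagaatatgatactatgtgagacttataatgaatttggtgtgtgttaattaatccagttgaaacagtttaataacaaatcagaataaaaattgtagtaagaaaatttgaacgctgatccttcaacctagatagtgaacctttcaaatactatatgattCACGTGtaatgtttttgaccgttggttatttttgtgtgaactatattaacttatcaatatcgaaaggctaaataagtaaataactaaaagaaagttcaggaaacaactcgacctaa
ELIP2 promoter, chr4:8417992-8418291 (+ strand): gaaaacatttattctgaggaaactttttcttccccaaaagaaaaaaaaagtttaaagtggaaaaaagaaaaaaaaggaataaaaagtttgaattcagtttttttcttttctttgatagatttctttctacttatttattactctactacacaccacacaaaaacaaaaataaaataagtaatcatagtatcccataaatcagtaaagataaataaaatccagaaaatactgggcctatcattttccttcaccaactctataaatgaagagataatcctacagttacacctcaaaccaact
OHP1 promoter, chr5:418841-419140 (+ strand): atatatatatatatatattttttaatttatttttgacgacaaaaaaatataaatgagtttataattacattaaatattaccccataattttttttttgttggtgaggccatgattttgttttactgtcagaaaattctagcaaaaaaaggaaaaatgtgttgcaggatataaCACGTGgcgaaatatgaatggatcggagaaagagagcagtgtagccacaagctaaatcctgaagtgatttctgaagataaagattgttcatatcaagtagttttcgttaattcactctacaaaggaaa
The G-box was found at 66 bases before the start of ELIP1 and 78 bases before that of OHP1, and in no other of the 9 windows. It occurs in 7.68% of 27443 promoters of protein-coding genes cut in the same way. The CCGAC core was found in the windows of SEP2 and OHP2 and occurs in 15.05% of all promoters. The evening element was in none of the 9 windows, against 2.82% of all promoters. The ELIP2 window held none of the 3 motifs, which says only that these letters are not in these 300 bases. A match is a description of the letters and not a site.

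Per gene length, PSBS stood far above the other genes in every library, at 1635, 1466, 1602 and 1419.95 RPKM (reads per kilobase and M reads) in the libraries labelled Col-0 at 20 °C, sme1-1 at 20 °C, Col-0 at 4 °C and sme1-1 at 4 °C, the order used from here on. It ranked between 54 and 69 among the 17218 genes. PSBS alone made up 53.6%, 50.3%, 53.6% and 46.2% of the summed RPKM of the 9 genes. In the Col-0 20 °C-labelled library the order below it was OHP1 (402 RPKM), OHP2 (256), LIL3:1 (197), SEP1 (181), LIL3:2 (179), SEP2 (91.5), ELIP1 (77.5) and ELIP2 (32.5). There SEP1 and LIL3:2 did not differ beyond counting error (ratio 1.01, 95% interval 0.977 to 1.04). In the sme1-1 20 °C-labelled library both ELIPs stood among the upper genes, with ELIP1 second at 291 RPKM and ELIP2 above OHP1 at 238 RPKM, and there LIL3:1 and LIL3:2 did not differ beyond counting error (1.03, 0.9996 to 1.07). In the Col-0 4 °C-labelled library the ELIPs again lay low, with ELIP1 at 120 RPKM and ELIP2 last at 53.9 RPKM. In that labelled sme1-1 4 °C, ELIP2 was second at 359 RPKM and SEP2 last at 34.9 RPKM. All other neighbours in the 4 orders differed beyond counting error, which holds no biological spread.

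ELIP1 and ELIP2 were the genes of the 9 that differed most, and both were higher in the sme1-1-labelled libraries. With the labels Col-0 4 °C and sme1-1 20 °C exchanged, the same values would place 4 °C above 20 °C in both genotypes. ELIP1 was read at 68.5, 258, 106 and 248 CPM (3056, 11584, 5004 and 11597 reads). Both libraries labelled sme1-1 lay above both labelled Col-0. ELIP1 was 3.76-fold higher (95% interval for counting error 3.61 to 3.91) in the sme1-1 20 °C-labelled library than in the Col-0 20 °C-labelled one, and 2.33-fold higher (2.26 to 2.41) in the sme1-1 4 °C-labelled one than in the Col-0 4 °C-labelled one. ELIP2 was read at 26.2, 192, 43.5 and 289 CPM (1169, 8636, 2050 and 13527 reads). The distance between the genotype labels was larger than for ELIP1, 7.33-fold (6.89 to 7.80) at 20 °C and 6.65-fold (6.35 to 6.97) at 4 °C. Its highest and lowest libraries were 11.03-fold apart, a range that 1.18% of all genes compared exceeded, and for ELIP1 the range was 3.76-fold, exceeded by 7.57% of genes.

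Both ELIPs were also higher in the Col-0 4 °C-labelled library than in the Col-0 20 °C-labelled one, by 1.55-fold (1.48 to 1.62) for ELIP1 and 1.66-fold (1.54 to 1.78) for ELIP2. Between the sme1-1-labelled libraries the copies went apart. ELIP2 was 1.51-fold higher (1.47 to 1.55) at 4 °C than at 20 °C, whereas ELIP1 was 1.04-fold lower (1.01 to 1.07). The temperature ratio of ELIP1 on the log2 scale was 0.63 for the Col-0 label and -0.06 for the sme1-1 label, a difference of -0.69 (-0.76 to -0.61, counting error). For ELIP2 the ratios were 0.73 and 0.59, a difference of -0.14 (-0.25 to -0.03). Of all genes compared, 13.2% had a difference larger in size than that of ELIP1 and 72.7% one larger than that of ELIP2. The extreme pair, sme1-1 4 °C against Col-0 20 °C, gave 3.62-fold (3.48 to 3.77) for ELIP1 and 11.03-fold (10.4 to 11.7) for ELIP2. The remaining pair set Col-0 4 °C against sme1-1 20 °C, where ELIP1 was 2.43-fold (2.35 to 2.51) and ELIP2 4.42-fold (4.21 to 4.64) lower.

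**Figure D1:**
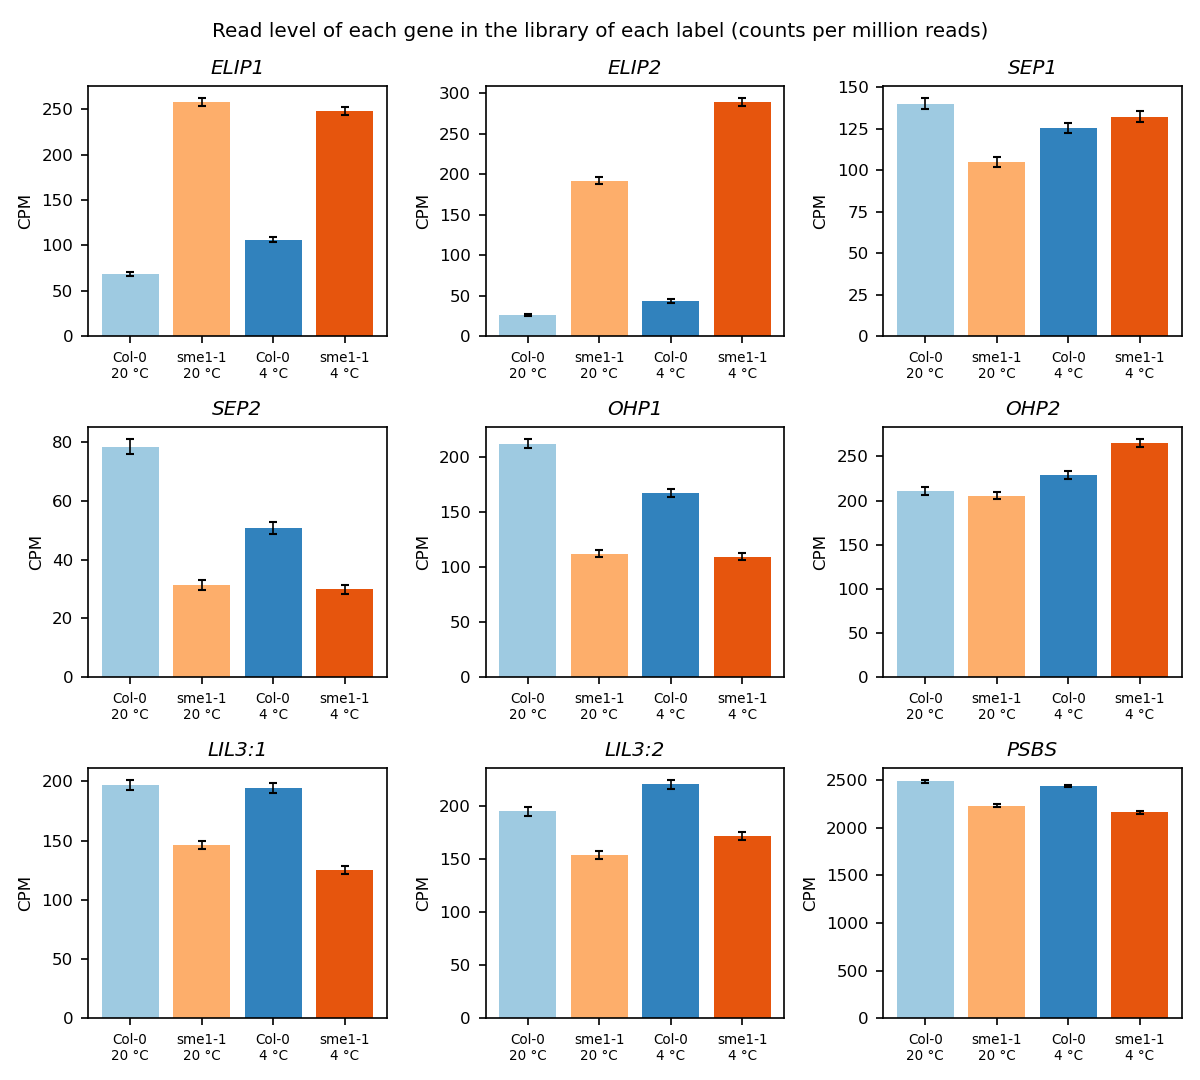
Level of each of the 9 genes in CPM (vertical axis, starting at 0) in the 4 libraries named by their labels (horizontal axis). Bars are single libraries and whiskers the exact 95% interval for counting error. The ELIP1 and ELIP2 bars are tallest in the sme1-1-labelled libraries, SEP2 and OHP1 are lowest there, and PSBS lies between 2158 and 2484.5 CPM in all of them.

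The balance within the ELIP pair also differed between the libraries. Per length, ELIP1 was 2.38-fold (2.23 to 2.55) above ELIP2 in the Col-0 20 °C-labelled library and 2.23-fold (2.11 to 2.34) in the Col-0 4 °C-labelled one. It was 1.22-fold (1.19 to 1.26) above ELIP2 in the sme1-1 20 °C-labelled one, and in the sme1-1 4 °C-labelled one the order was inverted, with a ratio of 0.782 (0.762 to 0.801). Summed, the pair reached 110, 530, 174 and 639 RPKM. PSBS was 21.1 times ELIP1 and 50.3 times ELIP2 per length in the Col-0 20 °C-labelled library, and 5.07 and 3.96 times in the sme1-1 4 °C-labelled one.

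The SEP genes did not follow the ELIPs. SEP2 was read at 78.3, 31.2, 50.6 and 29.9 CPM (3494, 1405, 2384 and 1398 reads), lowest in the sme1-1-labelled libraries. It was 2.51-fold lower (2.36 to 2.67) with the sme1-1 label at 20 °C and 1.69-fold lower (1.58 to 1.81) at 4 °C. With the Col-0 label it was 1.55-fold lower (1.47 to 1.63) at 4 °C than at 20 °C, and with the sme1-1 label the libraries did not differ beyond counting error (ratio 0.956, 0.887 to 1.03). SEP1 was read at 140 CPM, 105, 125 and 132 CPM, within 1.33-fold over all 4 libraries, a range that 79.6% of genes exceeded. It was lowest in the sme1-1 20 °C-labelled library, 1.33-fold (1.28 to 1.38) below Col-0 20 °C, and at 4 °C it was 1.05-fold higher (1.02 to 1.09) with the sme1-1 label, a direction that turned under TMM and DESeq2 scaling. Per length SEP1 was 1.98 times SEP2 in the Col-0 20 °C-labelled library and 4.89 times in the sme1-1 4 °C-labelled one.

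The OHP genes, whose products depend on each other in the plant, were unequal in these libraries. OHP1 was read at 212, 112, 167 and 109 CPM (9441, 5027, 7881 and 5111 reads). Like SEP2 it was lowest in both libraries labelled sme1-1, 1.89-fold (1.83 to 1.96) lower at 20 °C and 1.53-fold (1.48 to 1.59) at 4 °C, and it was 1.27-fold (1.23 to 1.30) lower at 4 °C with the Col-0 label. The libraries labelled sme1-1 did not differ in OHP1 beyond counting error (0.977, 0.940 to 1.02). OHP2 was read at 211, 205, 229 and 265 CPM, highest in the sme1-1 4 °C-labelled library, where it was 1.16-fold (1.13 to 1.19) above Col-0 4 °C and 1.29-fold (1.26 to 1.33) above sme1-1 20 °C. At 20 °C the genotype labels did not differ in OHP2 beyond counting error (0.974, 0.947 to 1.00). Per length OHP1 was 1.57 and 1.14 times OHP2 in the Col-0-labelled libraries, and 0.852 and 0.645 times in those labelled sme1-1. HCF244, the photosystem II assembly factor that binds both OHPs, was named as their known partner outside the rule for named genes. It was read at 186, 137, 178 and 168 CPM.

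**Figure D2:**
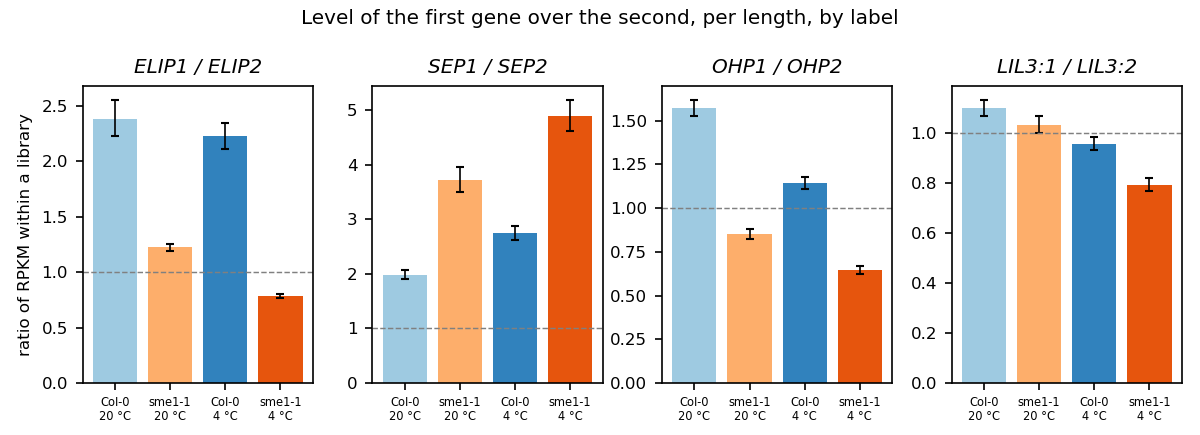
Ratio of RPKM of the first to the second gene of each pair within a library (vertical axes, starting at 0, scaled per panel), for the libraries named by their labels. Whiskers are exact 95% intervals for counting error and the dashed line marks equal levels. ELIP1 over ELIP2 goes from 2.38 to 0.782 and OHP1 over OHP2 from 1.57 to 0.645 from the Col-0 20 °C-labelled library to the sme1-1 4 °C-labelled one, while SEP1 over SEP2 goes from 1.98 to 4.89.

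The LIL3 pair was lower in both libraries labelled sme1-1, by less than 2-fold. LIL3:1 was read at 197, 146, 194 and 125 CPM, 1.35-fold (1.30 to 1.39) lower with the sme1-1 label at 20 °C and 1.55-fold (1.501 to 1.60) at 4 °C. LIL3:2 was read at 195, 154, 220 and 172 CPM, 1.27-fold (1.23 to 1.31) and 1.28-fold (1.25 to 1.32) lower. At 4 °C LIL3:2 was higher than at 20 °C with either genotype label, 1.13-fold (1.10 to 1.16) with Col-0 and 1.12-fold (1.08 to 1.15) with sme1-1. LIL3:1 did not differ beyond counting error between the Col-0-labelled libraries (0.985, 0.957 to 1.01) and was 1.17-fold (1.13 to 1.21) lower at 4 °C with the sme1-1 label. Per length LIL3:1 was 1.10, 1.03, 0.958 and 0.793 times LIL3:2.

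PSBS was the steadiest of the 9 genes. It was read at 2484.5, 2229, 2435 and 2158 CPM, a range of 1.15-fold, and 95.8% of all genes compared had a wider one. It was 1.11-fold (1.11 to 1.12) lower with the sme1-1 label at 20 °C and 1.13-fold (1.12 to 1.14) at 4 °C, and 1.02-fold (1.01 to 1.03) and 1.03-fold (1.02 to 1.04) lower at 4 °C with the Col-0 and sme1-1 labels. The first of these temperature differences turned in direction under TMM scaling.

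**Figure D3:**
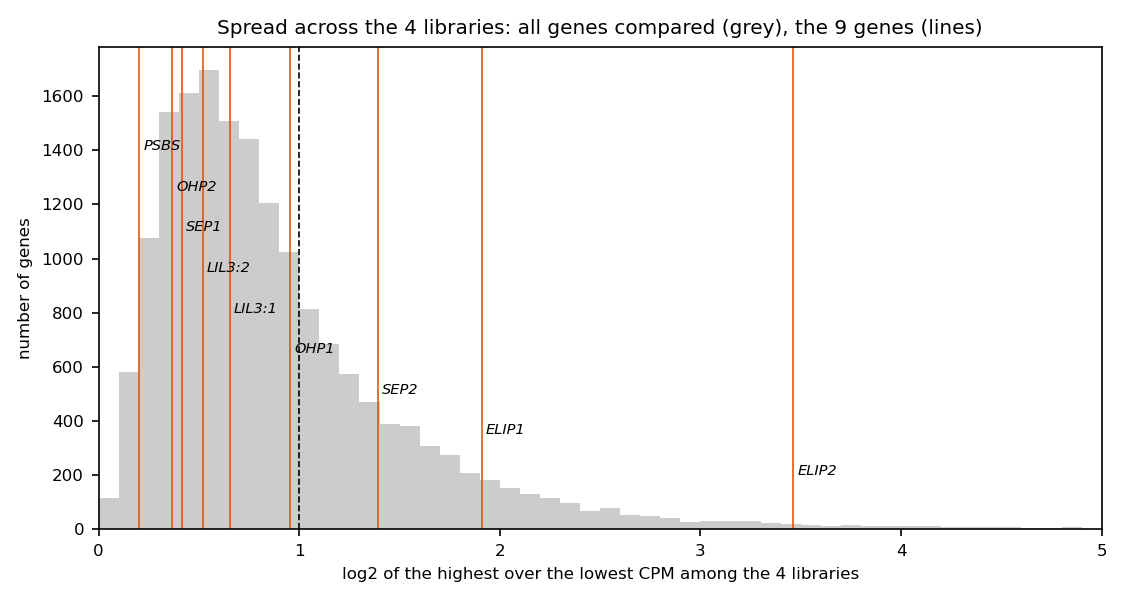
Histogram of the log2 ratio of the highest to the lowest CPM among the 4 libraries (horizontal axis, shown up to 5) for the 17218 genes compared (vertical axis, number of genes). Vertical lines mark the 9 genes and the dashed line a 2-fold range. PSBS, at 1.15-fold, lies at the narrow end, and ELIP2, at 11.03-fold, in the upper tail.

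Counted over the 9 genes, 3 (ELIP1, ELIP2 and SEP2) had a range of at least 2-fold among the 4 libraries, against 31.4% of all genes compared, so this share was near the background. With the sme1-1 label at 20 °C, 2 of 9 exceeded their level under the Col-0 label by at least 2-fold (ELIP1 and ELIP2) and 1 (SEP2) lay at least 2-fold below it. The background there was 9.08% of genes higher and 7.13% lower, 16.2% in all. At 4 °C, 2 of 9 were at least 2-fold higher and 0 lower, against 11.8% and 7.85%, 19.7% in all. Between temperatures 0 of 9 were at least 2-fold apart with either genotype label, where the background was 1.74% of genes with Col-0 (0.865% higher, 0.871% lower) and 5.83% with sme1-1 (3.26% higher, 2.56% lower). In the pair sme1-1 4 °C against Col-0 20 °C, 2 were higher and 1 lower (2 lower under TMM and DESeq2 scaling, where OHP1 also passed 2-fold), beside 12% and 9.84% of genes (21.9% in all), and in the pair Col-0 4 °C against sme1-1 20 °C, 0 were higher and 2 lower, beside 6.89% and 10.4% (17.3% in all). The median log2 ratio of the 9 genes between genotype labels was -0.34 at 20 °C and -0.17 at 4 °C, beside 0.03 and 0.09 over all genes. Between temperature labels it was -0.02 with Col-0 and -0.03 with sme1-1, beside -0.03 and 0.03 over all genes. On the log2 scale the temperature ratio with the sme1-1 label minus that with Col-0 was positive for SEP2 (0.57), SEP1 (0.49), OHP1 (0.31) and OHP2 (0.25). It was negative for LIL3:1 (-0.20), and its counting interval held 0 for LIL3:2 (-0.02, -0.08 to 0.04) and PSBS (-0.02, -0.03 to 0.0001). No test was made on any of these values, since each group is 1 library.

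**Figure D4:**
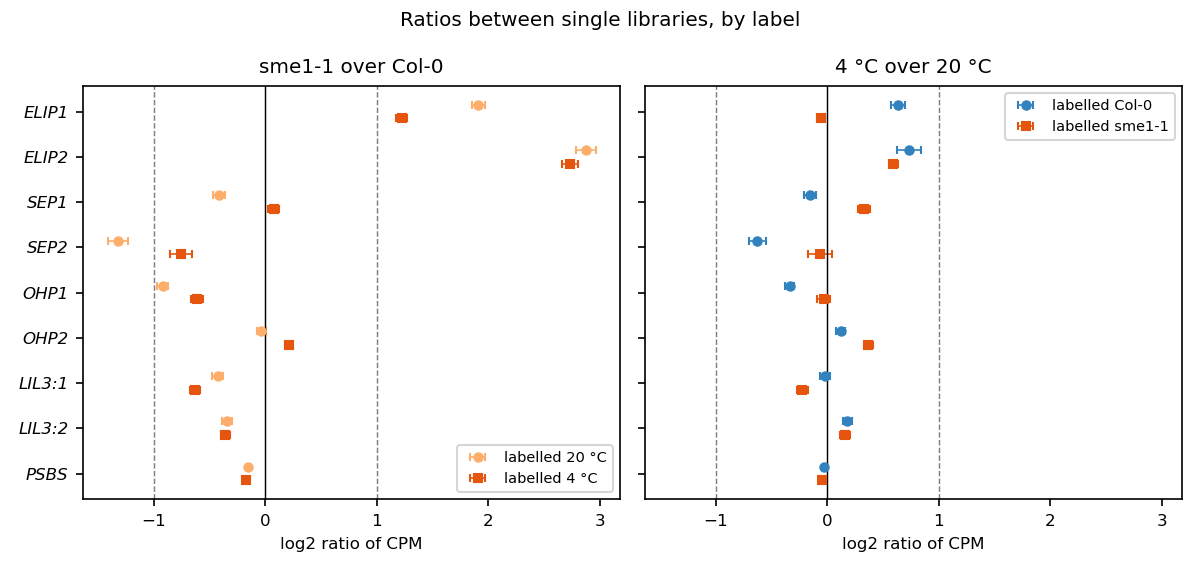
Log2 ratio of CPM (horizontal axes) for the 9 genes between genotype labels at each temperature label (left) and between temperature labels for each genotype label (right). Points are ratios of single libraries, whiskers exact 95% intervals for counting error, and dashed lines mark 2-fold. ELIP1 and ELIP2 lie right of the 2-fold line at both temperatures on the left, and no gene passes 2-fold on the right.

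Other genes of the same processes were described from lists chosen with earlier results of these data known. Their counts between genotype labels stand beside a background over all genes of 9.08% higher and 7.13% lower at 20 °C, and 11.8% and 7.85% at 4 °C. Between temperature labels their counts stand beside 1.74% of all genes at least 2-fold apart with Col-0 and 5.83% with sme1-1. A count of 0 there is near the background. Their medians stand beside all-gene medians of 0.03 at 20 °C and 0.09 at 4 °C. The antenna proteins, nearest relatives of the 9 genes, had 0 of 21 past 2-fold upward with the sme1-1 label and 2 past 2-fold downward at 20 °C, with a median log2 ratio of -0.31, and 3 lower at 4 °C, with a median of -0.08. LHCA6, a minor antenna protein of photosystem I, was lower 2.99-fold (2.82 to 3.17) at 20 °C and 2.86-fold (2.70 to 3.03) at 4 °C. LHCB4.3, an isoform of the minor antenna CP29, was lower 3.11-fold (2.79 to 3.46) and 2.65-fold (2.43 to 2.88). Between temperature labels none of the 21 was 2-fold apart, with medians of 0.08 for Col-0 and 0.29 for sme1-1.

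Among the chlorophyll synthesis genes, 2 of 21 measured were at least 2-fold higher with the sme1-1 label at either temperature and 0 lower, a share near the background. The 2 were PORB and PORA, protochlorophyllide oxidoreductases, which carry out the light-dependent step. PORB was read at 85.5, 432, 156 and 549 CPM, 5.06-fold (4.88 to 5.24) higher at 20 °C and 3.52-fold (3.43 to 3.61) at 4 °C. PORA was low, at 0.538, 2.76, 2.16 and 5.98 CPM, 5.12-fold (3.29 to 8.30) and 2.77-fold (2.197 to 3.50) higher. For both, as for ELIP1 and ELIP2, the sme1-1-labelled libraries lay above those labelled Col-0 and the Col-0 4 °C-labelled library above the Col-0 20 °C-labelled one. For PORA, though, Col-0 at 4 °C and sme1-1 at 20 °C did not differ beyond counting error (0.785, 0.598 to 1.03). PORC, the other enzyme of this kind, was read at 263, 238, 275 and 223 CPM and was 1.10-fold (1.08 to 1.13) lower with the sme1-1 label at 20 °C and 1.23-fold (1.203 to 1.27) lower at 4 °C. The list's medians were -0.12 at 20 °C and -0.30 at 4 °C. FC2, a ferrochelatase whose plant form ends in a light-harvesting motif, was named for that motif outside the rule and was read at 122, 140, 112 and 128 CPM. Of 7 chlorophyll breakdown genes 0 were 2-fold apart in any of the 4 comparisons between labels.

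NPQ1, the violaxanthin de-epoxidase that works beside PSBS in heat release, was read at 42.3, 98.2, 47.5 and 91.9 CPM. It was 2.32-fold (2.202 to 2.45) higher with the sme1-1 label at 20 °C and 1.93-fold (1.84 to 2.04) at 4 °C, while the level of PSBS was slightly lower. BETA-OHASE 1, a beta-carotene hydroxylase that supplies the same xanthophylls, was 3.35-fold (3.12 to 3.604) and 2.79-fold (2.61 to 2.99) lower, and BETA-OHASE 2 was 2.09-fold (1.96 to 2.22) and 1.60-fold (1.51 to 1.68) lower. Over the 11 carotenoid genes 1 was at least 2-fold higher and 2 lower at 20 °C, and 0 and 1 at 4 °C, with medians of -0.21 and -0.19. Of 11 regulators of energy dissipation and electron flow, 0 were higher and 1 lower at 20 °C, and none was 2-fold apart at 4 °C. The one was PGRL1B, a factor of cyclic electron flow, 2.11-fold (1.89 to 2.37) lower. Their medians were -0.45 and -0.39. Of 22 genes of photosystem II assembly and repair, 0 were 2-fold apart in any comparison between labels, with medians of -0.23 at 20 °C and -0.33 at 4 °C. DEG5, a thylakoid protease, was 1.86-fold (1.66 to 2.08) lower at 20 °C and CPSRP54, a targeting factor for antenna proteins, 1.77-fold (1.71 to 1.82) lower at 4 °C.

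The light signalling list held genes known to regulate ELIP transcripts. HY5, the bZIP factor through which light and ultraviolet radiation raise ELIP transcripts, was read at 37.6, 10.3, 35.1 and 6.41 CPM. It was 3.64-fold (3.28 to 4.05) lower with the sme1-1 label at 20 °C and 5.48-fold (4.84 to 6.22) at 4 °C, the direction opposite to that of both ELIPs. These are transcript levels, and a link between HY5 and the ELIP levels in these libraries was not tested. The blue-light receptor CRY2 was 2.57-fold (2.43 to 2.71) higher at 4 °C, and BBX25, a B-box factor that binds HY5, was 2.48-fold (2.41 to 2.54) and 3.14-fold (3.06 to 3.22) higher. RUP2, a repressor of the ultraviolet receptor, was 2.66-fold (2.48 to 2.85) lower at 4 °C. Of the 21 genes, 3 passed 2-fold upward and 3 downward at 20 °C, 2 and 4 at 4 °C, and none between temperature labels. The list's medians between genotype labels were -0.10 at both temperatures, beside 0.03 and 0.09 over all genes.

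The genes most like each member over the 4 libraries were found by the Euclidean distance between log2(CPM + 1) values centred on each gene's mean. With 4 libraries many genes come near by this measure. Nearest to ELIP1 were ABCI19 (distance 0.06), the kinase gene WNK7 (0.12) and the CTP synthase gene AT1G30820 (0.16). Nearest to ELIP2 were the sugar transporter gene SWEET4 (0.22), AT3G22142 (0.23), described as a lipid-transfer family gene, and AT4G30660 (0.24), described as a low temperature and salt responsive gene. SWEET4 was low, at 0.560, 11.0, 1.25 and 14.8 CPM, and the 1 CPM added shrinks the differences of such a gene. Nearest to SEP2 were AT5G58110 (0.13), MEE3 (0.14) and PTI1-4 (0.14). Among the 9 genes SEP2 and OHP1 were 0.33 apart, and 0.73% of all genes were nearer to SEP2 than OHP1 was. The smallest distance between members was that of LIL3:2 and PSBS (0.275). ELIP1 and ELIP2 were 1.29 apart, and 27.1% of all genes were nearer to ELIP1 than ELIP2 was. The distance grows with the size of the differences (ranges of 3.76-fold and 11.03-fold here), so it does not compare shape alone. The share of genes nearer to ELIP2 was not computed.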

How the data were processed

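RNA from leaves was sequenced in 4 libraries, 1 per group. The deposited tables list, per gene, the count of uniquely mapped reads, the gene length, the percent of the length covered (coverage) and RPKM, per the file headers. The build is TAIR10, per the submitters' processing notes. Which aligner and counting program were run is not given in the sources used here. The deposited RPKM was recomputed from count, length and file total with a largest difference of 4.00e-11. Lengths differed between tables for 36 genes, none of them a member.

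Counts were scaled to the file total (CPM), and a gene missing from a table was set to 0. A count of 0 allows up to 3 counts, 0.0636 to 0.0672 CPM. Genes entered comparisons when their mean reached 1 CPM. Each ratio has an exact 95% interval from its 2 counts, and each level 1 from its own count. These cover counting error only and hold no biological spread, since each group is 1 library. The reads carry no molecular identifiers, so copies of 1 molecule could be counted as separate reads. That can make the intervals too narrow. The interval of a difference of log2 ratios is approximate (delta method). A gene at 0 in 1 library entered counts of 2-fold differences at 3 counts. The intervals and 2-fold calls were checked on counts simulated with known folds from the counting model that the intervals assume. That check holds no replicate spread. With 1 library per group no p was computed. DESeq2 and edgeR served for alternative scalings, as planned.

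Symbols came from the TAIR10.1 annotation by code. Of 154 list genes, 8 whose code and symbol it does not pair were left out of list counts; SME1 and SME2, 2 of these 8, are named by code. OHP1 is listed there as OHP and PSBS as NPQ4. Named genes are the 9 members, the label checks, up to 4 list genes furthest from 0 per comparison and the 3 nearest patterns of members with a 2-fold range. The members, lists and tests were chosen with earlier results of these data known. Promoters and coding exons were read from the RefSeq TAIR10.1 genome. Tools were R 4.3.3 with edgeR 4.0.16 and DESeq2 1.42.0, and Python 3.11.15 with scipy 1.17.1, pandas 2.3.3, numpy 2.4.6 and matplotlib 3.10.9.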

Additional observations from a re-analysis of the deposited data

Results flagged for a closer look

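ELIP1 was flagged because its temperature ratio went in opposite directions under the 2 genotype labels: the log2 ratio of 4 °C to 20 °C was 0.6317 with the Col-0 label and -0.0556 with sme1-1. SEP1 was flagged for the same reason, with -0.1584 for Col-0 and 0.3289 for sme1-1. SEP1 also went in opposite directions between genotype labels, with a log2 ratio of sme1-1 to Col-0 of -0.4135 at 20 °C and 0.0737 at 4 °C. The ratio at 4 °C turned to -0.02 with TMM and -0.01 with DESeq2 scaling, so that the directions were then no longer opposite. Each group is 1 library, and none of these differences between ratios was tested.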

How the results depend on the processing

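No paired analysis was possible because each group holds 1 library, and for the same reason no library could be left out. Deposited RPKM is the count over length and file total, so its ratios between libraries equal the main ones and could not change. With these included, 216 log2 ratios of members were compared under TMM, DESeq2 size factors, totals without organelle genes and deposited RPKM, and 5 changed sign. These were SEP1 between genotype labels at 4 °C (-0.02 with TMM, -0.01 with DESeq2), LIL3:1 between temperatures with Col-0 (0.01 and 0.01) and PSBS there (0.01 with TMM). The largest shift was 0.10. Yet 30 log2 ratios or differences of log2 ratios of members lay outside their counting interval with TMM, and 25 with DESeq2. ELIP1 between genotype labels at 4 °C, for example, was 1.22 in the main setting, 1.13 with TMM and 1.14 with DESeq2. Scaling can thus move a value beyond its printed interval. OHP1 passed 2-fold in sme1-1 4 °C against Col-0 20 °C with TMM and DESeq2 (-1.01 in both). Under a 1.5-fold threshold the members counted were 5 between genotypes at 4 °C, 3 and 1 between temperatures with Col-0 and sme1-1, and 5 in sme1-1 4 °C against Col-0 20 °C. The share of all genes at 1.5-fold is not given here, so these member counts have no background. They cannot be set against the shares at 2-fold. Over all genes, the counts at least 2-fold apart were 2792 and 3391 between genotypes at 20 °C and 4 °C, 299 and 1003 between temperatures with Col-0 and sme1-1, and 3764 and 2973 in the other pairs, as ordered in the report. Without a filter they were 4399, 5128, 1489, 2546, 5729 and 4692. At a mean of at least 5 CPM they were 1846, 79, 469, 2500 and 1978, leaving out genotypes at 4 °C, where the count was within 1.5 times. Fewer genes entered that setting and more the one without a filter. The widest counting interval of a member's CPM had a half-width of 5.78% of the level.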
